A study of Mus musculus with 7 samples.

Results

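Imprinted genes are transcribed mainly from the copy inherited from 1 parent, because marks set in the egg or sperm, chiefly DNA methylation, silence the other copy. Many of them control growth before birth and are turned down in most organs afterwards. Polycomb repressive complex 2, whose catalytic subunit is EZH2, takes part in silencing some imprinted genes in the mouse embryo, among them Cdkn1c and Grb10. The 10 genes described here, H19, Igf2, Cdkn1c, Peg3, Mest, Plagl1, Grb10, Ndn, Sgce and Igf2r, are imprinted genes outside the Dlk1-Dio3 locus. They were chosen by symbol, and all 10 were present among the 22447 genes with a usable symbol.

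RNA-seq measured 3 lung tumors with EZH2 overexpression (OE tumors), 2 normal lungs with EZH2 overexpression (OE normal lung) and 2 wild-type normal lungs (WT lung), all from mice. Values are FPKM, that is, sequenced fragments scaled by transcript length and library size. The sources used here do not give the promoter that drives EZH2, the strain or the age, and do not state whether replicates are separate animals, so the p-values below reflect spread between libraries that may be technical. The protocol text mentions culturing minced nodules although the source is lung tissue, so the tumor RNA may come from either. FPKM adds up both parental copies, so no value here tells which copy was active.

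Ezh2 itself was at 8.48, 23.5 and 22.6 FPKM in tumors 1, 2 and 3, against 10.2 and 11.5 in OE normal lung and 3.72 and 2.58 in WT lung, so tumor 1 was above WT lung but below OE normal lung. Tumor 1 was the only male tumor by Eif2s3y and Xist, and OE normal 2 was the only female normal lung. Relative read depth, from the spacing of low values, was 1.20 to 1.87 in the other libraries with tumor 1 set to 1. Markers of alveolar type 2 cells, the surfactant-producing cells, were present in all 7 libraries, with 10 of them summing to 8340 to 13400 FPKM in tumors, 2118 to 3150 in OE normal lung and 2477 to 3411 in WT lung.

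Upstream stretches are shown for 3 genes: Ndn, with the largest fall in tumors, Peg3, also called lower but scarce in every group, and Igf2r, which was not called. They are RefSeq sequences on GRCm38.p6, not the mm9 build of the deposited files, and run 5′ to 3′ on the strand of the gene. Capitals mark CG dinucleotides, where DNA methylation occurs.
Ndn, 250 bases before the start, chr7:62348027-62348276, plus strand: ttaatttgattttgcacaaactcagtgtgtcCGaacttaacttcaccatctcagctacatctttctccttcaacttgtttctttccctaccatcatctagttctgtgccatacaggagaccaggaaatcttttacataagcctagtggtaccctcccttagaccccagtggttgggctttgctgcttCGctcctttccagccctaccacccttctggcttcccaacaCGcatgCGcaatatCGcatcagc
Peg3, 96 bases of its upstream stretch that lie outside the RefSeq spans of Peg3 and of the divergent gene Usp29, chr7:6730463-6730558, minus strand: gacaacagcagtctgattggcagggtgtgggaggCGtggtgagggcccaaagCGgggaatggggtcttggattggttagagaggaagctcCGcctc
Igf2r, 250 bases before the start, chr17:12769707-12769956, minus strand: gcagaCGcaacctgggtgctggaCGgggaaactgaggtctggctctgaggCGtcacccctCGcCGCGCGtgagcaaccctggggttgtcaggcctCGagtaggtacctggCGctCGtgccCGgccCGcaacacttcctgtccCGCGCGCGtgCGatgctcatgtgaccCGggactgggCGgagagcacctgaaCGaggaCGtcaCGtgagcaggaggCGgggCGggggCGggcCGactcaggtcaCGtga
The 250 bases before the start held 5 CG dinucleotides for Ndn, 8 for Peg3 (printed in part) and 27 for Igf2r. The median was 6 over 32851 RefSeq promoters of 250 bases. Of the 10 genes, 7 had promoter rows, with 13 starts, and 10 of these starts held more CG than that median. Grb10 had the most, with 40. The palindrome GGGGCCCC, known as a binding sequence of PLAGL1, was found on both strands before 1 of the 13 starts, that of Peg3 (in a stretch not printed), and in 0.889% of all promoters of that length. These matches describe sequence only.

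**Figure D1:**
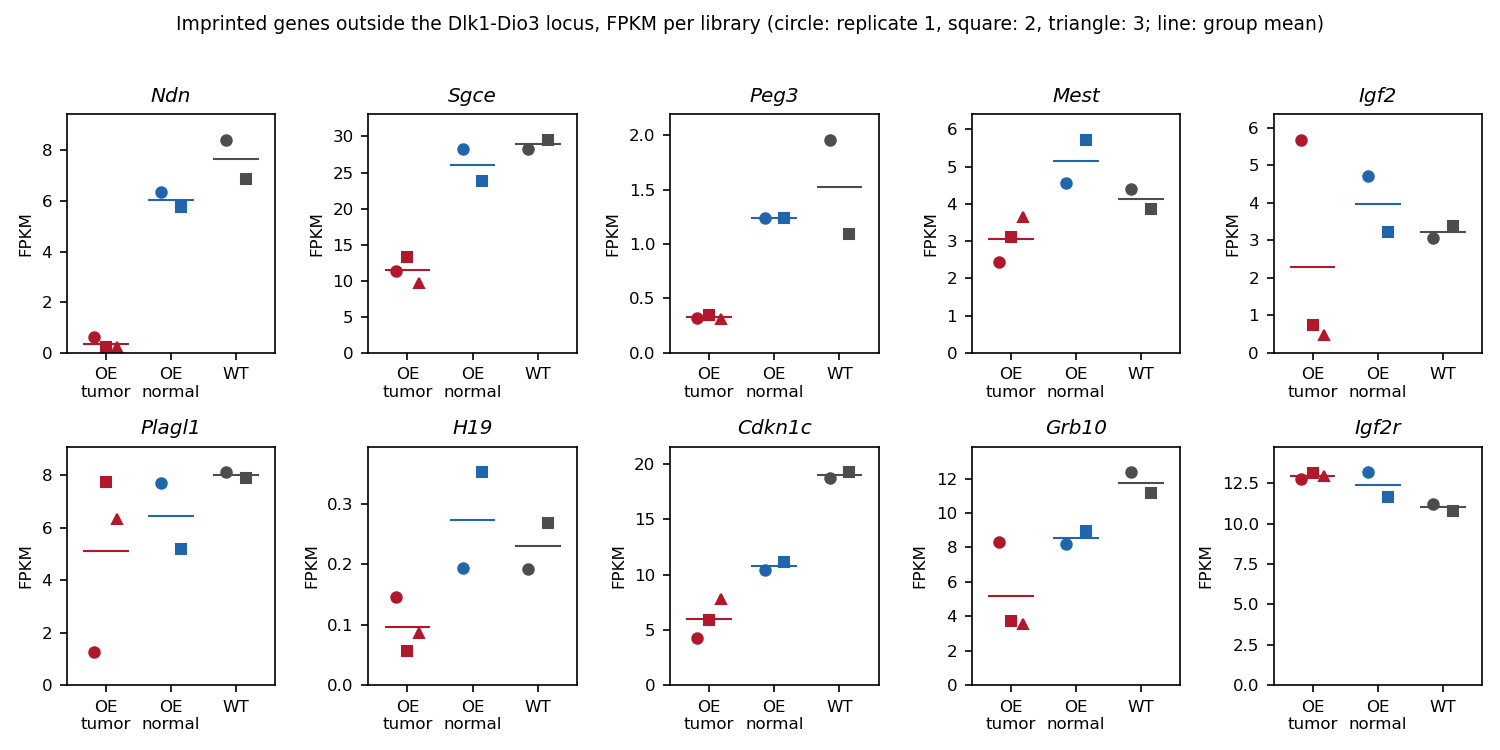
FPKM of each of the 10 imprinted genes (vertical axes, linear from 0) in the 3 OE tumors, 2 OE normal lungs and 2 WT lungs, with points for libraries and lines for group means. Ndn, Sgce, Peg3, Mest, Cdkn1c and H19 were lower in all 3 tumors than in all 4 normal lungs, and tumor 1 (circle) lay apart from tumors 2 and 3 in Igf2, Grb10 and Plagl1.

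Tumors had less RNA than OE normal lung of 5 of the 10 genes, Ndn, Sgce, Peg3, Cdkn1c and Mest, and more of none. The test was limma, a linear model on log2(FPKM + 1) over the 14057 genes reaching 1 FPKM in 2 or more libraries, with calls at a Benjamini-Hochberg adjusted p under 0.05. Of all genes tested, 38.1% were called in this comparison, 24.9% lower and 13.1% higher. Igf2, Plagl1, Grb10 and Igf2r were tested and not called, and H19 was below the minimum. Ndn, Peg3 and Igf2 would not have reached the minimum without the normal lungs, so counts and medians over tested members are descriptions. The median log2 difference was -0.76 over the 9 tested members and -0.11 over all genes tested. In bulk tissue, fewer cells that express a gene and less RNA per cell cannot be told apart.

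Against WT lung, limma called Ndn, Sgce, Peg3, Cdkn1c and Grb10 lower and none of the 10 higher. Of all genes tested, 38.2% were called here, 23.2% lower and 15% higher. The 2 comparisons share the tumors. Against all 4 normal lungs together 6 genes were called lower, those 5 and Mest, where 47.3% of all genes were called, 28.2% lower and 19% higher. By the copy that is usually active, 4 of the 6 paternally expressed genes (Igf2, Peg3, Mest, Plagl1, Ndn and Sgce) and 1 of the 3 tested maternally expressed genes (Cdkn1c, Grb10 and Igf2r) were lower than in OE normal lung. Against WT lung these counts were 3 of 6 and 2 of 3.

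The 3 tumors lay wholly below OE normal lung for 5 of the 9 tested genes and wholly above it for none. Over all genes tested the groups did not overlap in 60.9%, 35.9% lower and 25% higher. Against WT lung 7 were wholly lower and 1, Igf2r, wholly higher, where the shares of all genes were 63.9%, 35% and 28.9%. Against all 4 normal lungs 5 were wholly lower and none wholly higher, where the shares were 52%, 30% and 21.9%. Exact permutation tests (two-sided) cannot go below p = 0.1 against either group or p = 0.0286 against all 4 normal lungs. Among the limma calls, Cdkn1c against OE normal lung and Grb10 against WT lung were above that limit (permutation p = 0.2 each). So were Mest and Grb10 against all 4 normal lungs (permutation p = 0.0571 each). The other limma calls of members were at the limit.

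**Figure D2:**
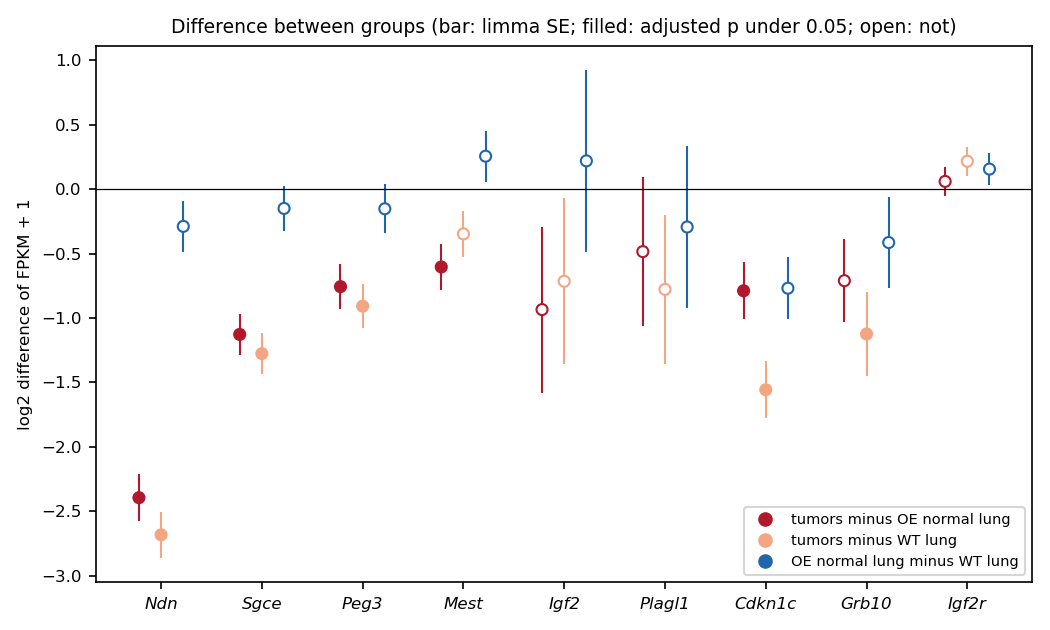
Difference in log2(FPKM + 1) (vertical axis) for the 9 tested genes in 3 pairwise comparisons, with limma standard errors as bars and filled points for an adjusted p under 0.05. Ndn stood lowest at -2.39 and -2.68, and no gene was called between OE normal and WT lung.

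Ndn, which encodes necdin, a growth-suppressing protein of the MAGE family, had the largest difference of the set. Its level was 0.6065, 0.212 and 0.239 FPKM in tumors 1, 2 and 3, against 6.34 and 5.77 in OE normal lung and 8.41 and 6.88 in WT lung. All tumors were far below all normal lungs. The means were 0.352 ± 0.2205 (SD, n = 3), 6.06 ± 0.4045 (SD, n = 2) and 7.645 ± 1.08 FPKM (SD, n = 2), so normal lung was 17.2-fold (OE) and 21.7-fold (WT) above tumors. The log2 differences were -2.39 (SE 0.18, limma adjusted p = 3.97e-04) and -2.68 (SE 0.18, limma adjusted p = 2.74e-04). Within each library Ndn ranked at percentile 5.7 to 8.2 of tested genes in tumors and 34.2 to 48.3 in normal lung.

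Sgce encodes epsilon-sarcoglycan, a membrane protein of the dystrophin-associated complex, and had the highest FPKM of the 10 genes in normal lung. Its level was 11.35, 13.3 and 9.65 FPKM in tumors 1, 2 and 3, against 28.25 and 23.9 in OE normal lung and 28.3 and 29.5 in WT lung. Tumors overlapped with neither normal group. Normal lung was 2.28-fold (OE) and 2.53-fold (WT) above tumors by the means, with log2 differences of -1.13 (SE 0.16, limma adjusted p = 0.002965) and -1.28 (SE 0.16, limma adjusted p = 0.00192). For Ndn and Sgce, the calls against either normal group held in all 19 fits run.

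Peg3 encodes a zinc finger protein linked to p53-dependent cell death and was scarce in every group. Its level was 0.322, 0.350 and 0.308 FPKM in tumors 1, 2 and 3, against 1.24 and 1.24 in OE normal lung and 1.96 and 1.095 in WT lung. The tumors were below all normal lungs and close to each other. OE normal lung was 3.80-fold above tumors by the means, and the log2 difference of -0.76 (SE 0.17, limma adjusted p = 0.0168) is compressed by the added 1. Against WT lung it was -0.91 (SE 0.17, limma adjusted p = 0.00890). By percentile the groups overlapped, at 5.1 to 8.2 in tumors and 6.5 to 14.3 in normal lung, and with quantile normalization the differences were 0.00 from OE normal lung (limma adjusted p = 0.988) and -0.32 from WT lung (limma adjusted p = 0.209). The call against OE normal lung held in 12 of 18 fits. It was also lost with the replicate block (limma adjusted p = 0.0871), without tumor 2 or tumor 3 (limma adjusted p = 0.0501 and 0.0537), and without OE normal 1 or OE normal 2.

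Mest, a gene of the alpha/beta-hydrolase family that promotes fetal growth, differed less. Its level was 2.425, 3.10 and 3.64 FPKM in tumors 1, 2 and 3, against 4.57 and 5.715 in OE normal lung and 4.40 and 3.85 in WT lung. The tumors were below all normal lungs by a narrow margin. The log2 difference was -0.60 (SE 0.18, limma adjusted p = 0.04195) from OE normal lung and -0.35 (SE 0.18, limma adjusted p = 0.176) from WT lung. The call held in 8 of 18 fits and was lost, among others, with median-of-ratios scaling (limma adjusted p = 0.119) and without tumor 2, OE normal 1, OE normal 2, WT 1 or WT 2 (limma adjusted p = 0.0807 to 0.224). With sex as a covariate Mest was also called against WT lung (-0.56, limma adjusted p = 0.0497).

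Igf2, the fetal growth factor, split the tumors. Its level was 5.67, 0.7305 and 0.465 FPKM in tumors 1, 2 and 3, against 4.71 and 3.21 in OE normal lung and 3.05 and 3.38 in WT lung. Tumor 1 was above all normal lungs and tumors 2 and 3 were below all of them, with tumor 1 at 9.49 times the mean of the other tumors. The log2 difference was -0.93 (SE 0.64, limma adjusted p = 0.2925) from OE normal lung and -0.71 (SE 0.64, limma adjusted p = 0.4135) from WT lung. Without tumor 1 these were -1.62 (limma adjusted p = 0.0008325) and -1.40 (limma adjusted p = 0.00141). Igf2 reached the minimum in that fit only through the normal lungs. Over all genes it called 9604 of 13969 against OE normal lung and 9429 against WT lung. The main fit called 5350 and 5371 of 14057.

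Plagl1 encodes a zinc finger transcription factor that regulates other imprinted genes, and it split the tumors the other way. Its level was 1.26, 7.73 and 6.34 FPKM in tumors 1, 2 and 3, against 7.72 and 5.19 in OE normal lung and 8.11 and 7.90 in WT lung. Tumor 1 was below every other library, 5.58-fold under the mean of tumors 2 and 3, which lay near the normal lungs. The log2 difference was -0.48 (SE 0.58, limma adjusted p = 0.535) from OE normal lung and -0.78 (SE 0.58, limma adjusted p = 0.324) from WT lung. Leaving out tumor 1 turned the first to 0.12 (limma adjusted p = 0.574) and moved the second to -0.17 (limma adjusted p = 0.447).

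Cdkn1c encodes p57, an inhibitor of cyclin-dependent kinases. Its level was 4.22, 5.90 and 7.75 FPKM in tumors 1, 2 and 3, against 10.4 and 11.1 in OE normal lung and 18.8 and 19.3 in WT lung. The groups did not overlap, in the order tumors, OE normal lung, WT lung. The log2 difference was -1.56 (SE 0.22, limma adjusted p = 0.00309) from WT lung, which was called in all 19 fits, and -0.79 (SE 0.22, limma adjusted p = 0.0341) from OE normal lung. The latter call held in 11 of 19 fits. It was lost with median-of-ratios scaling (limma adjusted p = 0.101), with quantile normalization (limma adjusted p = 0.107) and with only the groups compared (limma adjusted p = 0.07225). It was also lost without tumor 2 (limma adjusted p = 0.0830), OE normal 1, OE normal 2, WT 1 or WT 2.

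Grb10 encodes an adaptor that restrains insulin and IGF1 receptor signalling. Its level was 8.295, 3.73 and 3.55 FPKM in tumors 1, 2 and 3, against 8.19 and 8.96 in OE normal lung and 12.4 and 11.15 in WT lung. Tumor 1 lay within the range of OE normal lung, and tumors 2 and 3 lay below all normal lungs. The log2 difference from WT lung was -1.12 (SE 0.32, limma adjusted p = 0.0368), a call that held in 9 of 19 fits. It was lost with no filter, with only the groups compared and with the replicate block (limma adjusted p = 0.0572, 0.06915 and 0.107). It was also lost without tumor 2 or tumor 3 (limma adjusted p = 0.0984 and 0.0960), without any 1 normal lung, and with sex as a covariate (limma adjusted p = 0.128). From OE normal lung it was -0.71 (SE 0.32, limma adjusted p = 0.132). When tumor 1 was left out it became -1.04 (limma adjusted p = 4.05e-04), in a fit that called 9604 of 13969 genes.

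Among the tumors, tumor 1 also had the highest sum of 12 fibroblast markers, 343 FPKM against 73.05 in tumor 2 and 119 in tumor 3. It was the only male tumor, so sex and other features of tumor 1 cannot be told apart among tumors. With sex as a covariate the log2 differences from OE normal lung were -0.71 for Igf2, -0.62 for Plagl1 and -0.62 for Grb10, none of them called (limma adjusted p = 0.189, 0.375 and 0.119). From WT lung, that fit turned Igf2 to 0.20 (limma adjusted p = 0.772) and moved Plagl1 to -1.33 (limma adjusted p = 0.167) and Grb10 to -0.78, none called. The part of fibroblast content in the split was not tested.

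Igf2r, the receptor that carries IGF2 to lysosomes, had the narrowest range of the 10 genes in log2(FPKM + 1). Its level was 12.8, 13.1 and 12.99 FPKM in tumors 1, 2 and 3, against 13.2 and 11.65 in OE normal lung and 11.2 and 10.8 in WT lung. Tumors overlapped with OE normal lung and lay just above WT lung. The log2 difference was 0.06 (SE 0.11, limma adjusted p = 0.690) and 0.22 (SE 0.11, limma adjusted p = 0.168). Airn, the noncoding RNA that silences the paternal Igf2r copy, overlaps it on the other strand, and without a stated strand setting their reads may be mixed. Airn was at 9.54, 5.78 and 5.85 FPKM in tumors 1, 2 and 3, against 6.54 and 6.93 in OE normal lung and 6.32 and 5.20 in WT lung, and was not called against OE normal lung (0.03, SE 0.23, limma adjusted p = 0.935).

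H19, the noncoding RNA beside Igf2 that is abundant in the fetus, was barely detected. Its level was 0.146, 0.0567 and 0.0863 FPKM in tumors 1, 2 and 3, against 0.193 and 0.352 in OE normal lung and 0.192 and 0.268 in WT lung. Tumors were below all normal lungs. Corrected for relative depth, the values were whole multiples of 1 step to within 0.044 of a step: 12, 8 and 9 steps in tumors, 19 and 54 in OE normal lung and 23 and 30 in WT lung, which are the smallest read numbers that fit. A two-sided exact permutation test gave p = 0.0286 against all 4 normal lungs and p = 0.1 against either group, in each case the smallest possible. With no expression minimum the limma log2 difference was -0.21 from OE normal lung (SE 0.07, adjusted p = 0.0623) and -0.19 from all normal lung (SE 0.05, adjusted p = 0.0320).

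Between OE normal lung and WT lung, limma called none of the 9 tested genes and 0 of all genes (0%). At an unadjusted p under 0.05 it gave 1 of the 9, Cdkn1c, and 1208 of all 14057. The largest member difference was that of Cdkn1c, -0.77 (SE 0.24, limma adjusted p = 0.417). Grb10 differed by -0.41 (SE 0.35, limma adjusted p = 0.953) and Mest by 0.26 (SE 0.20, limma adjusted p = 0.9285), so the calls of Grb10 against WT lung only and of Mest against OE normal lung only come with no called difference between the normal groups. OE normal lung lay wholly below WT lung for 5 of the 9 genes, Cdkn1c, Plagl1, Grb10, Ndn and Sgce, and wholly above it for 2, Mest and Igf2r, where 52.6% of all genes did not overlap, 23.1% lower and 29.6% higher. An exact permutation test of 2 against 2 cannot go below p = 0.333.

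The genes did not share 1 profile. For log2(FPKM + 1) centred per gene over the 7 libraries, the root mean square gap was smallest for Peg3 and Sgce, at 0.26, and widest for Ndn and Igf2r, at 1.34, and for Igf2 and Plagl1, at 1.22. Over 13069 genes, the nearest to Ndn was Popdc3 (gap 0.10), a membrane protein gene of the Popeye family, at 0.391, 0.01035 and 0.0280 FPKM in tumors 1, 2 and 3, against 5.83 and 4.64 in OE normal lung and 6.50 and 6.73 in WT lung. Klhl5 and Tppp followed (gaps 0.11 and 0.11). Nearest to Sgce were Wdr38, Ndst1 and Armcx3 (gaps 0.09, 0.09 and 0.10). Wdr38 was at 0.0290, 0.152 and 0.0229 FPKM in tumors 1, 2 and 3, against 1.46 and 1.26 in OE normal lung and 1.33 and 1.69 in WT lung. The added 1 compresses the profiles of low genes such as Peg3 and Wdr38, so a small gap does not mean a like fold difference. Nearest to Igf2 were Espn, Eps8 and Man1c1 (gaps 0.17, 0.18 and 0.19), with the actin-bundling gene Espn at 4.79, 0.645 and 0.554 FPKM in tumors 1, 2 and 3.

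Neighbours within 4 megabases that are reported as imprinted in some mouse tissue moved in both directions against OE normal lung, a comparison with 13.1% higher and 24.9% lower over all genes tested. In the Ndn domain on chromosome 7, Snrpn, a paternally expressed splicing protein gene, was at 0.697, 0.1835 and 0.3135 FPKM in tumors 1, 2 and 3, against 6.31 and 6.34 in OE normal lung and 6.59 and 8.21 in WT lung. All tumors were far below all normal lungs (-2.41, SE 0.19, limma adjusted p = 4.62e-04 against OE normal lung). Snrpn reached the minimum only through the normal lungs. Ube3a, a ubiquitin ligase gene of that domain whose paternal copy is silent in neurons, was higher in tumors (0.64, SE 0.19, limma adjusted p = 0.0397), and Atp10a was not called (-1.10, SE 0.38, limma adjusted p = 0.0659).

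Around Sgce on chromosome 6, none of 5 tested neighbours was called lower and 3 were called higher. Of these, Peg10 and Tfpi2 reached the minimum only through the tumors, and Calcr and Asb4 did not reach it, so this count is a description. Calcr was at 0, 0.0105 and 0.00709 FPKM in tumors 1, 2 and 3, below the 0.0924 to 0.4205 of the normal lungs. Peg10, a retrotransposon-derived gene that starts beside Sgce, was at 0.8685, 1.28 and 1.05 FPKM in the 3 tumors and 0.757 and 0.381 in OE normal lung (0.40, SE 0.16, limma adjusted p = 0.0987). Ppp1r9a, a neuronal actin-binding protein gene, was at 15.7, 42.6 and 40.4 FPKM in the 3 tumors and 8.385 and 6.56 in OE normal lung (1.89, SE 0.43, limma adjusted p = 0.0162). The paraoxonase gene Pon2 (0.70, SE 0.12, limma adjusted p = 0.00546) and the protease inhibitor gene Tfpi2 (0.73, SE 0.22, limma adjusted p = 0.0405) were higher too. Copg2, a coat protein gene that overlaps Mest on the other strand, was higher while Mest was lower (0.87, SE 0.24, limma adjusted p = 0.0347), and their reads may be mixed. Ddc, the decarboxylase gene next to Grb10, was higher (2.12, SE 0.30, limma adjusted p = 0.00299). Near Igf2r, the cation transporter gene Slc22a3 was lower (-1.03, SE 0.17, limma adjusted p = 0.00510). The region of H19, Igf2 and Cdkn1c held 12 other tested genes of the list, of which Phlda2 (1.27), Tnfrsf23 (1.21) and Cd81 (0.41) were called higher and Osbpl5 (-0.78) and Tspan32 (-1.68) lower. Without the tumors, Ddc and Phlda2 would not have reached the minimum. Without the normal lungs, Slc22a3 would not have reached it.

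**Figure D3:**
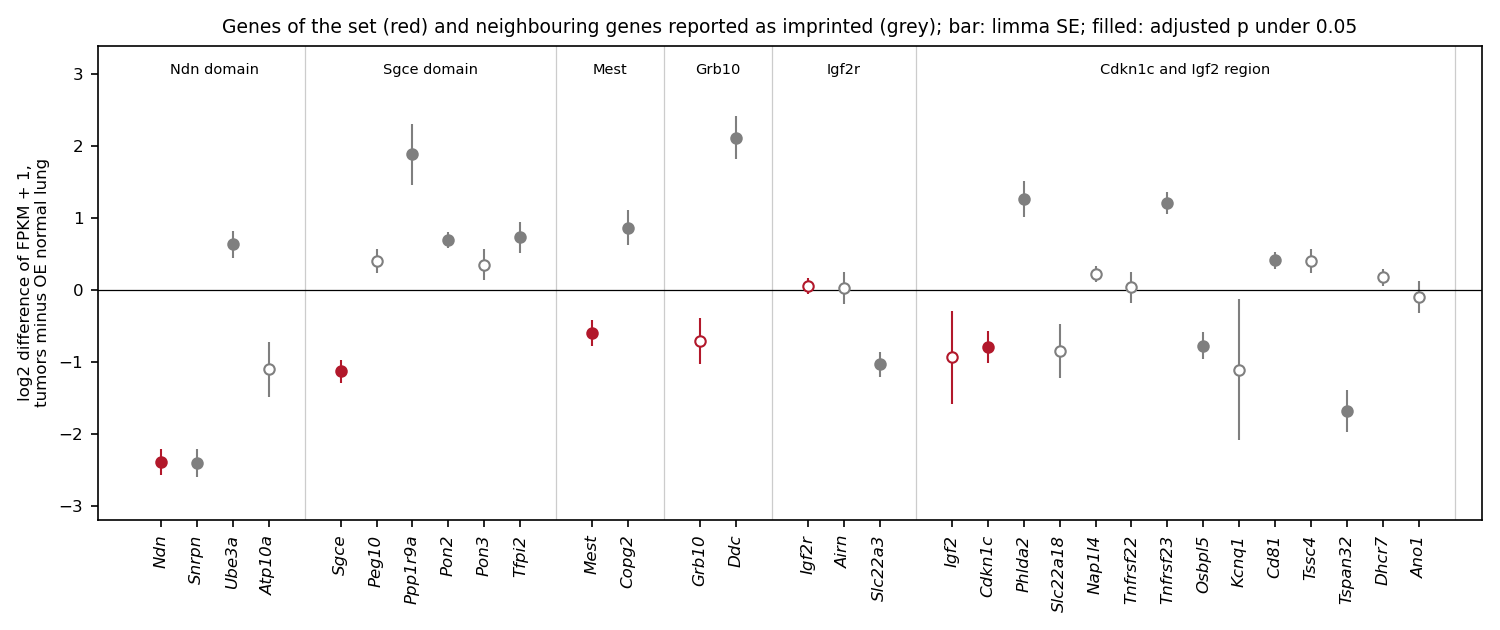
Difference in log2(FPKM + 1) of tumors minus OE normal lung (vertical axis) for genes of the set (red) and neighbours reported as imprinted (grey), by region, with limma standard errors as bars and filled points for an adjusted p under 0.05. Ndn (-2.39) and Snrpn (-2.41) lay together, while Copg2, Ddc and Ppp1r9a lay above 0 beside Mest, Grb10 and Sgce.

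Of 64 other genes listed as imprinted, 61 were in the files and 41 were tested. Against OE normal lung 12 were higher and 8 lower, beside 13.1% higher and 24.9% lower of all genes tested, with a median log2 difference of 0.13. The list includes genes imprinted only in placenta or brain. Qpct, glutaminyl cyclase, had the largest rise (2.88, SE 0.16, limma adjusted p = 2.74e-04), and Blcap was higher as well (1.19, SE 0.32, limma adjusted p = 0.0282). Besides Snrpn and Tspan32, the largest falls by the naming rule were those of the purine enzyme gene Ampd3 (-2.34, SE 0.39, limma adjusted p = 0.005305) and the noncoding RNA Peg13, at 5.23, 8.10 and 8.31 FPKM in the 3 tumors and 35.3 and 34.65 in OE normal lung (-2.15, SE 0.21, limma adjusted p = 8.49e-04). In the Dlk1-Dio3 locus 4 of 5 tested genes were higher in tumors and 1 was lower. Some of the 5 reached the minimum only through the tumors or only through the normal lungs, so this count is a description. The noncoding RNA Rian was at 155, 726 and 714 FPKM in the 3 tumors and 10.3 and 2.17 in OE normal lung.

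Of 18 tested factors that set or keep imprints, 4 were higher in tumors than in OE normal lung and none lower, beside 13.1% higher and 24.9% lower of all genes tested. Trim28, the corepressor at imprint control regions, was at 69.5 ± 6.77 (SD, n = 3) against 34.0 ± 2.36 FPKM (SD, n = 2) (1.01, SE 0.12, limma adjusted p = 0.00176). Zfp57, the zinc finger protein that brings Trim28 there, was at 15.2, 17.3 and 12.6 FPKM in tumors 1, 2 and 3, against 8.08 and 6.83 in OE normal lung and 15.2 and 16.1 in WT lung. It was above OE normal lung (0.92, SE 0.16, limma adjusted p = 0.00668) and near WT lung. Tet2, a methylcytosine dioxygenase, was higher (0.47, SE 0.13, limma adjusted p = 0.0340). The maintenance methyltransferase gene Dnmt1 was at 11.35, 7.26 and 7.22 FPKM in the 3 tumors and 11.0 and 10.6 in OE normal lung.

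Of 13 tested genes of the IGF2 axis, 4 were higher and 3 lower than in OE normal lung, beside the same shares of all genes. The IGF-binding protein genes Igfbp2 (-4.92, SE 0.49, limma adjusted p = 8.82e-04) and Igfbp6 (-4.80, SE 0.80, limma adjusted p = 0.00520) had the largest falls and the insulin receptor substrate Irs1 the largest rise (2.48, SE 0.67, limma adjusted p = 0.0298). Igf1r, through which IGF2 signals, was at 22.7, 5.66 and 4.845 FPKM in the 3 tumors and 9.12 and 7.40 in OE normal lung, highest in tumor 1 as Igf2 was.

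Many markers of other cell types were also lower in tumors than in OE normal lung, a comparison with 24.9% lower and 13.1% higher of all genes tested. Of 12 fibroblast markers 7 were lower in tumors than in OE normal lung and none higher, with sums of 73.05 to 343 FPKM in tumors, 1605 to 1745 in OE normal lung and 2064 to 2109 in WT lung. Inmt alone made up 1118 of 1605 and 1105 of 1745 FPKM in OE normal lung and 1575 of 2064 and 1459 of 2109 in WT lung. Col1a1, Col1a2 and Col3a1 were at 66.1, 61.9 and 61.2 FPKM in tumor 1, above every normal lung. All 12 endothelial markers were lower, with sums of 133 to 177 FPKM in tumors, 1697 to 1927 in OE normal lung and 1999 to 2393 in WT lung. Of 8 smooth muscle and pericyte markers 6 were lower, with sums of 71.8 to 399.5 FPKM in tumors, 329 to 356.5 in OE normal lung and 460 to 643 in WT lung. Acta2 alone made up 313 of 399.5 FPKM in tumor 1. The 4 tested mesothelial markers were lower, with sums of 0.208 to 8.23 FPKM in tumors, 58.0 to 106 in OE normal lung and 59.0 to 110 in WT lung. No marker of these lists was listed at 0. Of 7 macrophage markers 2, Chi3l3 and Trem2, were higher and none lower, and Chi3l3 alone made up 1084 of 1241, 364 of 434 and 864 of 954 FPKM of their sum in tumors 1, 2 and 3. The 8 heart muscle markers summed to 3.72 to 8.45 FPKM in tumors, 678 to 1605 in OE normal lung and 733 to 1266 in WT lung, and Myl7 was listed at 0 in tumor 2. All 8 were lower than in OE normal lung, as were all 8 ciliated and all 8 T, NK and B cell markers. So were the 4 tested erythroid and 5 tested adipocyte markers and 3 of 4 tested skeletal muscle markers. Of 8 alveolar type 1 markers 5 were lower and 1 higher, and of 10 alveolar type 2 markers 8 were higher. Many of the lower markers reached the minimum only through the normal lungs, so these counts are descriptions. The 10 imprinted genes summed to 45.0 to 48.25 FPKM in tumors, 77.1 to 84.8 in OE normal lung and 94.1 to 96.8 in WT lung. The part of these cell types in the lower levels of Ndn, Sgce, Peg3, Mest and Cdkn1c was not tested.

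**Figure D4:**
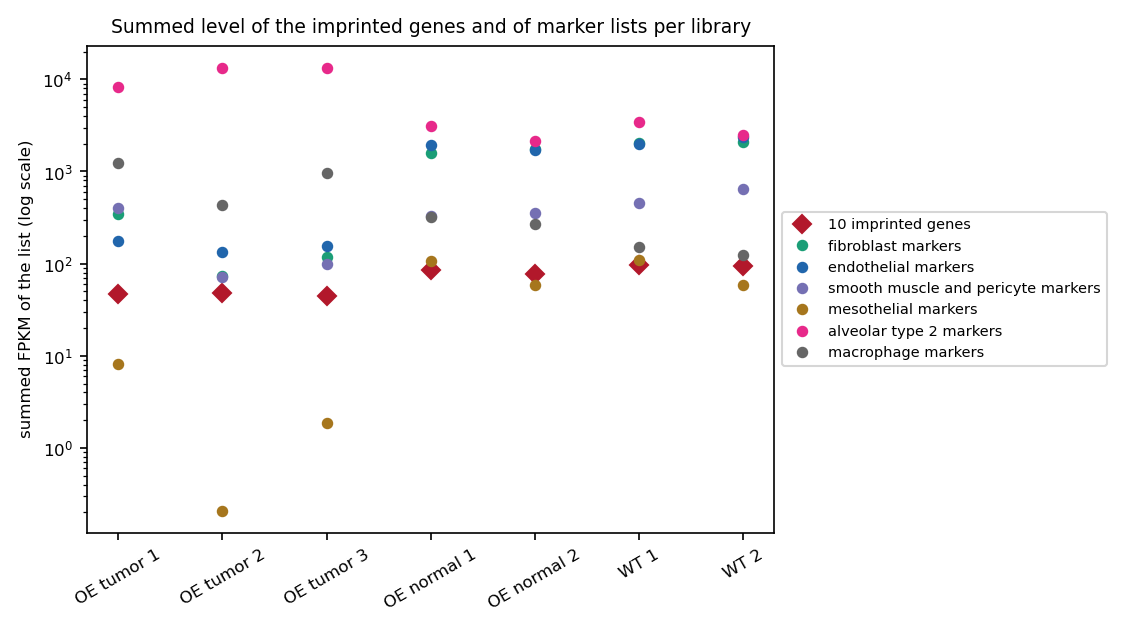
Summed FPKM (vertical axis, log scale) of the 10 imprinted genes (diamonds) and of 6 marker lists (circles) in each of the 7 libraries. The imprinted genes summed to 45.0 to 48.25 FPKM in tumors, where fibroblast, endothelial and mesothelial sums were lower and alveolar type 2 sums higher than in normal lung. The macrophage sum is mostly Chi3l3, and the fibroblast sum in normal lung is mostly Inmt.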

How the data were processed

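Gene-level FPKM were produced by the authors with TopHat2 or TopHat and Cufflinks 2.0.0 against mm9, per the submitters' processing notes, and the unit was inferred from these tools and the values. The sources used here do not give the annotation, strand setting or read totals, so depth is known only relative to tumor 1. Files had 22474 rows, 27 of them with a date in place of a symbol, which were left out. Groups are those of the labels. The log2(FPKM + 1) values, not rescaled, went into limma 3.58.1 (R 4.3.3; trend, two-sided, Benjamini-Hochberg) with 3 groups sharing 1 spread, or 2 groups for all normal lung. The procedure was tested on simulated data. All 10 genes are named. Other genes are named by size of change among calls with a higher mean of at least 5 FPKM, or by likeness of profile; Ezh2, Airn, Dnmt1, Igf1r and the neighbours outside that rule were chosen with their values seen. The genes and lists were chosen with earlier results of these data known. Alternatives varied pseudocount, filter, scaling, trend, samples fitted, replicate block and each library left out; sex as a covariate was added after the data were seen. Figures: Python 3.11.15, matplotlib 3.10.9.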

Additional observations from a re-analysis of the deposited data

How the results depend on the processing

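Against OE normal lung, 5 of 9 tested members were called. With the filter at 5 FPKM 3 of 6 were called, as Igf2, Peg3 and Mest were not tested. Median-of-ratios scaling or only the groups compared gave 3 of 9, quantile normalization 2 of 9, and leaving out 1 tumor 2 to 7 of 9. Over all genes the main fit called 5350 of 14057 and the 5 FPKM filter 4020 of 10575. Median-of-ratios scaling gave 5691, only the groups compared 4160 and quantile normalization 6056 of 14057. Against WT lung (5 called) leaving out a library gave 4 to 6. Against all normal lung (6 called) quantile normalization gave 3 and leaving out a library 4 to 6. Over all genes the main fit called 6645 of 14057 there, 2674 higher and 3971 lower. Quantile normalization called 7089, 4153 higher and 2936 lower. Peg3 against OE normal lung turned to 0.0046 with quantile normalization. The cause was not tested. Of values not called, these changed sign: Plagl1 against OE normal lung without tumor 1 (0.12), Igf2 against WT lung with sex as a covariate (0.20), Igf2r against OE normal lung rescaled to TPM (-0.16), without small RNA genes (-0.07) or without OE normal 2 (-0.02), Igf2r against all normal lung rescaled to TPM (-0.01), and Peg3 between the normal groups without WT 1 (0.10). Ndn and Sgce were called in each fit of the 3 tumor comparisons, from -3.87 to -1.83 and from -1.39 to -0.96 against OE normal lung.

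Deviations of same-numbered libraries from their group means correlated at -0.029 to 0.034. In groups of 2 these deviations are mirror images, so the correlations cannot tell whether the numbers pair the libraries. Tumor 1 and OE normal 1 were male, tumor 2 and OE normal 2 were female, and both WT lungs were male. With the replicate block 3 members were called against OE normal lung and 3 against WT lung, and over all genes 3130 and 2999, 4278 against all normal lung and 1 between the normal groups. Over all genes, leaving out a library gave 2877 to 9604 calls against OE normal lung, 2411 to 9429 against WT lung, 4668 to 9292 against all normal lung and 0 to 302 between the normal groups, the highest each time without tumor 1. Between the normal groups pseudocount 0.1 gave 1, no filter 2, only the groups compared 3 and sex as a covariate 1.

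Against OE normal lung 34.5% of calls were higher, 44.6% with median-of-ratios scaling, 56% with quantile normalization, 18.2% rescaled to TPM and 24.2% without small RNA genes, with the median of all genes at -0.11, 0.05, 0.13, -0.33 and -0.25. Against WT lung the share was 39.4%, and 54.7% with quantile normalization and 28.2% without small RNA genes. H19 may rest on few reads, as its step numbers are only the smallest read numbers that fit. Read numbers were not estimated for the other members.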
